A study of Sus scrofa with 6 samples.

Results

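The small RNAs of deciduous molar germs and deciduous canine germs of miniature pig embryos were compared on 1 two-colour array, which is 1 of the 6 arrays of the study. The array was chosen by its labels alone: it paired molar RNA of embryonic day 40, stained with Cy5, with canine RNA of the same day, stained with Cy3. No treatment or genetic change is named for either germ, and whether 1 embryo or several gave each RNA is not stated. The whole study covered incisor, canine, premolar and molar germs at days 40, 50 and 60, with 1 RNA for each of these conditions. The title of one array gives its incisor RNA day 60, but that array's other labels and column heading give day 50, which was used here and has no part in the contrast of day 40. Each of 742 probes was printed in 4 spots, which repeat the measurement of the same RNA pair and are not samples. The ± values below are therefore SDs over 4 spots, no p-value was computed, and no difference has a check against other molar or canine germs.

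A tooth germ is an epithelial bud or cap joined to a condensed mesenchyme that descends from the neural crest, and signals between both layers set the shape of the future crown. A canine forms a single cusp, whereas a molar forms several cusps around secondary enamel knots and starts from the dental lamina at the back of the jaw. MicroRNAs (miRNAs) are short RNAs that guide silencing proteins to messenger RNAs, mainly by pairing through the seed near their 5′ end, and probes that share a seed therefore represent RNAs with overlapping targets.

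The probes fell into 4 kinds by their names. The array held 188 probes for mature pig miRNAs (named ssc), 193 probes named for a miRNA with a number after it, 157 probes whose names begin with PN and 204 whose names begin with PC. What PN and PC stand for is not given in the sources used here, and a number inside a PN name was read as a miRNA number only as the file writes it. The sequences below, copied from the spot file, are those of most probes that were at least 2-fold different in every spot, shown because they carry the contrast between both germs. Capitals mark the seed, bases 2 to 8 from the 5′ end.

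Probes higher in the molar, 1 for each seed among the miRNAs, followed by PN and PC probes:
ssc-miR-504: aGACCCUGgucugcacucuaucu
miR-214-5p-15474: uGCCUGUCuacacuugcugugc
ssc-miR-339: uCCCUGUCcuccaggagcucac
ssc-miR-345-5p: gCUGACUCcuaguccagugcu
miR-551a-3p-4326: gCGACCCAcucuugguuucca
miR-99a-3p-2459: cAAGCUCGcuucuaugggucugu
miR-491-5p-13995: aGUGGGGAacccuuccaugagga
PN-381-3p-1991: uAUACAAGgacaagcucucugu
PN-140-3p-18: aCCACAGGguagaaccacggac
PC-5p-44729: gGAGGGUCggaggaga
PC-5p-58681: cAGCAAAGcagcagggcc

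Probes lower in the molar:
miR-218-5p-18206: gGUGGAACgauggaaacggaac
PN-494-3p-3917: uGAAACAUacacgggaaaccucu
miR-451-5p-792: aAACCGUUaccauuacugaguuu
ssc-miR-19b: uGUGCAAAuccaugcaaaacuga
PN-1937b-5p-17039: aUAUCCCGgacgagccccca
PN-411-5p-771: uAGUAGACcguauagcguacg
PN-141-3p-21462: uAACACUGucugguaaagaugu
PN-1274a-5p-54245: gUCCCUGUucaggcgcca
ssc-miR-1308: gCAUUGGUgguucagugguagaauuc
PN-301a-3p-20657: cAGUGCAAuaguauugucaaagcau

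Most probes differed little between molar and canine germs of day 40. A probe was called detected when its mean spot density exceeded the local level of the blank spots by 3 robust SDs in at least 1 RNA, which held for 705 of 742 probes. Of the 402 probes detected in both RNAs, 326 (81.1%) differed by less than 1.5-fold, and 5% lay below a log2 ratio of molar over canine of -0.71 while the 95th percentile was 0.85. The median spot SD of the log2 ratio was 0.13, and the ratios of any pair of spots correlated across detected probes with an r of 0.85 to 0.92, a description over probes that share both RNAs. Over the same 402 probes the levels of the molar and the canine of day 40 had a Spearman's rho of 0.94 across probes. This rho is not set against those with other RNAs, since both RNAs share 1 array and were normalised against each other.

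By the strict rule used here, 15 of 705 detected probes (2.13%) were at least 2-fold higher in the molar in all 4 spots. In the other direction 13 of 705 (1.84%) were at least 2-fold lower in all 4 spots. Between them they covered 28 probes (3.97%). The balance of both counts rests on the intensity-dependent normalization: with the log2 ratios centred on their median instead, 68 probes were higher and 4 were lower. All 28 probes kept their sign under that setting, but 9 of the 13 lower probes then had mean log2 ratios between -0.34 and -0.97 and no longer reached 2-fold.

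**Figure D1:**
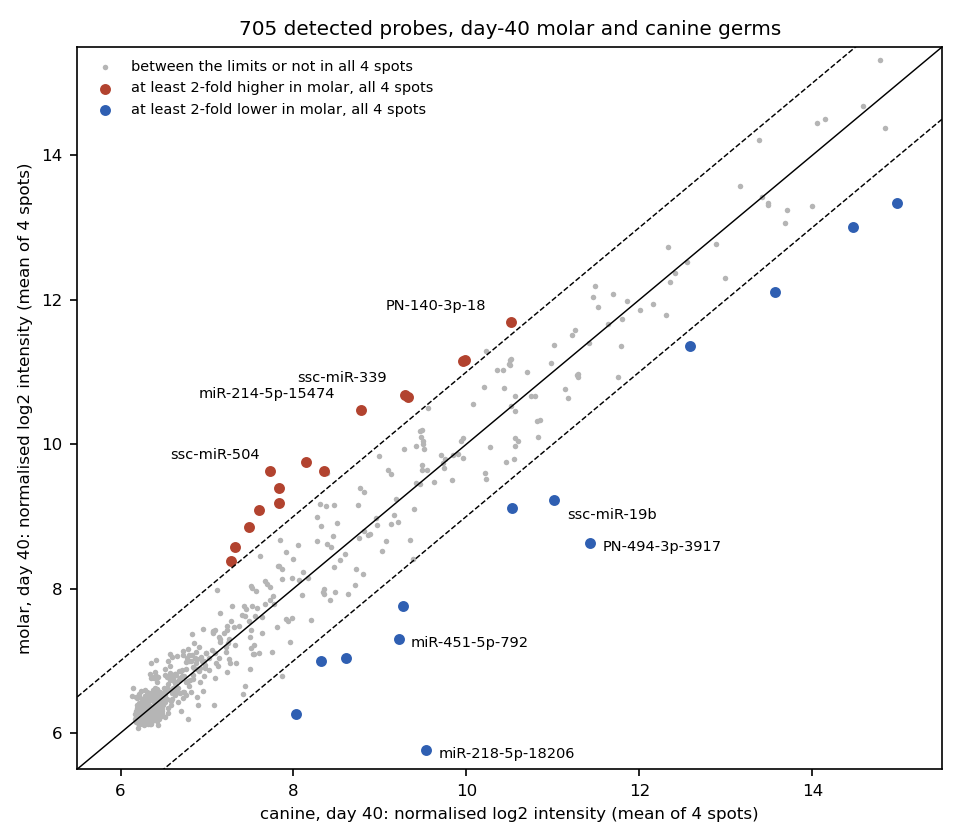
Normalised log2 intensity of 705 detected probes in the day-40 canine (x axis) and the day-40 molar (y axis), each the mean of 4 spots, with the line of equality and dashed lines at 2-fold. Most probes lie between the dashed lines, 15 called higher in the molar lie above them, and 13 called lower lie below them, with miR-218-5p-18206 farthest off.

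The array columns differed in their low signals, which bears on the dim probes. The molar column detected 402 probes and the canine column 705, and 303 probes were detected in the canine only against 0 in the molar only. In 48 calibration control spots that share 1 name stem, the density over the blank spots was -0.449 ± 3.38 units in the molar column and 30.1 ± 12.6 units in the canine column (SD over spots). Measured against these control spots, 388 probes were above the controls in the molar and 269 in the canine, and all 28 called probes remained above them in at least 1 RNA. On each of the 6 arrays the left column, which is the canine column here, detected at least as many probes as the right one. Detection in the canine alone was therefore not by itself read as a difference between germs. It did not bar a call by the 2-fold rule, which 1 probe detected in the canine only met, miR-218-5p-18206. That probe is counted among those lower in the molar, although column and germ cannot be told apart for it. The offset of 50 units added before taking logs pulls the ratios of dim probes towards 0. How far the higher level of the control spots in the canine column adds to the ratios of dim probes was not tested.

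miR-504, which in human cells targets the tumour suppressor p53, had the highest ratio of the array. The probe ssc-miR-504 gave normalised intensities of 843, 830, 663 and 837 units in the molar, against 195, 241, 209 and 208 units in the canine. Every molar spot lay above every canine spot, and the mean log2 ratio was 1.89 ± 0.21, or 3.71-fold. The second probe for the same arm, miR-504-5p-623, read 596, 596, 506 and 491 units in the molar, against 193, 188, 168 and 230 units in the canine. Its log2 ratio was 1.49 ± 0.27, the spread being wider because 1 spot gave 1.09. The opposite arm, miR-504-3p-35231, did not share the direction: its log2 ratio was -0.16 ± 0.09 at low density.

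miR-214 and miR-199a can come from 1 precursor transcript, DNM3OS, that is typical of mesenchyme. The 5′ arm of miR-214 was the miRNA with the steadiest large difference, with 1452, 1446, 1368 and 1415 units in the molar and 455, 458, 429 and 421 units in the canine. Its log2 ratio was 1.69 ± 0.04, 3.22-fold. The more abundant 3′ arm did not follow it. The probe ssc-miR-214 read 6267, 5722, 5948 and 5623 units in the molar and 6741, 5832, 5617 and 5955 units in the canine, a log2 ratio of -0.03 ± 0.08, and miR-214-3p-314 gave -0.10 ± 0.10. The 3′ arm of miR-199a was at 0.10 ± 0.01 and the 5′ arm at -0.13 ± 0.09. Among the probes for miR-199a and miR-214 that are named here, the difference was seen in the 5′ arm of miR-214 alone.

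Both probes for miR-339 and both for miR-345 were called higher in the molar. The probe ssc-miR-339 had 1864, 1577, 1623 and 1532 units in the molar and 681, 571, 630 and 633 units in the canine, a log2 ratio of 1.39 ± 0.09, and miR-339-5p-24465 gave 1.33 ± 0.11. The probe ssc-miR-345-5p had 655, 555, 557 and 574 units in the molar and 234, 202, 247 and 235 units in the canine, a log2 ratio of 1.35 ± 0.15, and miR-345-5p-26266 gave 1.36 ± 0.19. In each of these pairs the probes differ only in length at the 3′ end, so they are repeat readings of nearly the same RNA. The 3′ arms again stayed apart from the 5′ arms, with a log2 ratio of 0.19 ± 0.02 for miR-339-3p-22035 and -0.34 ± 0.13 for ssc-miR-345-3p. PC-345-3p-22893, which shares 21 bases with ssc-miR-345-3p, was on the other side of 0, at 0.16 ± 0.12.

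Among miRNA probes, 3 more met the rule for higher in the molar. miR-551a-3p-4326 read 802, 911, 756 and 711 units in the molar and 311, 339, 323 and 330 units in the canine, with a log2 ratio of 1.28 ± 0.14. Its seed is shared with PN-551b-3p-28603, which had a log2 ratio of -0.03 ± 0.04 at 192, 213, 184 and 193 units in the molar and 196, 218, 180 and 202 units in the canine. The minor arm of miR-99a, miR-99a-3p-2459, read 400, 388, 356 and 388 units in the molar and 147, 173, 152 and 169 units in the canine, with a log2 ratio of 1.26 ± 0.13. Its major arm, ssc-miR-99a, did not differ in the same way (-0.14 ± 0.12), and neither did miR-99b-3p-543 (0.15 ± 0.31), which has the same seed. miR-491-5p-13995 was the dimmest, with 344, 306, 343 and 343 units in the molar and 164, 152, 141 and 164 units in the canine and a log2 ratio of 1.11 ± 0.12.

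Among the PN and PC probes, 5 were called higher in the molar, 3 of 153 detected PN probes and 2 of 175 detected PC probes. In the other direction 8 PN probes and 0 PC probes were called lower. Over all detected probes the shares were 2.13% higher and 1.84% lower. PN-140-3p-18, named for miR-140, a miRNA of cartilage in the mouse, was the brightest of all 15, with 3170, 3360, 3244 and 3423 units in the molar and 1440, 1556, 1419 and 1440 units in the canine. Its log2 ratio was 1.17 ± 0.06. The pig probe ssc-miR-140*, which shares 22 bases with it, was short of the rule at 0.70 ± 0.09, with 4898, 4249, 4616 and 4980 units in the molar and 2918, 2820, 2670 and 3139 units in the canine. Probes for the opposite arm did not share the direction: ssc-miR-140 was at -0.16 ± 0.12 and PN-140-5p-5323, not detected in the molar, at -0.12 ± 0.06. PN-300-3p-13997 and PN-381-3p-1991 differ only in length and carry the names of miRNAs that lie in the imprinted DLK1-DIO3 locus. They had log2 ratios of 1.20 ± 0.07 and 1.18 ± 0.07, at means of 2288 and 2295 units in the molar and 996 and 1014 units in the canine. The candidates PC-5p-44729 (1.61 ± 0.19) and PC-5p-58681 (1.57 ± 0.09) carry no miRNA name.

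**Figure D2:**
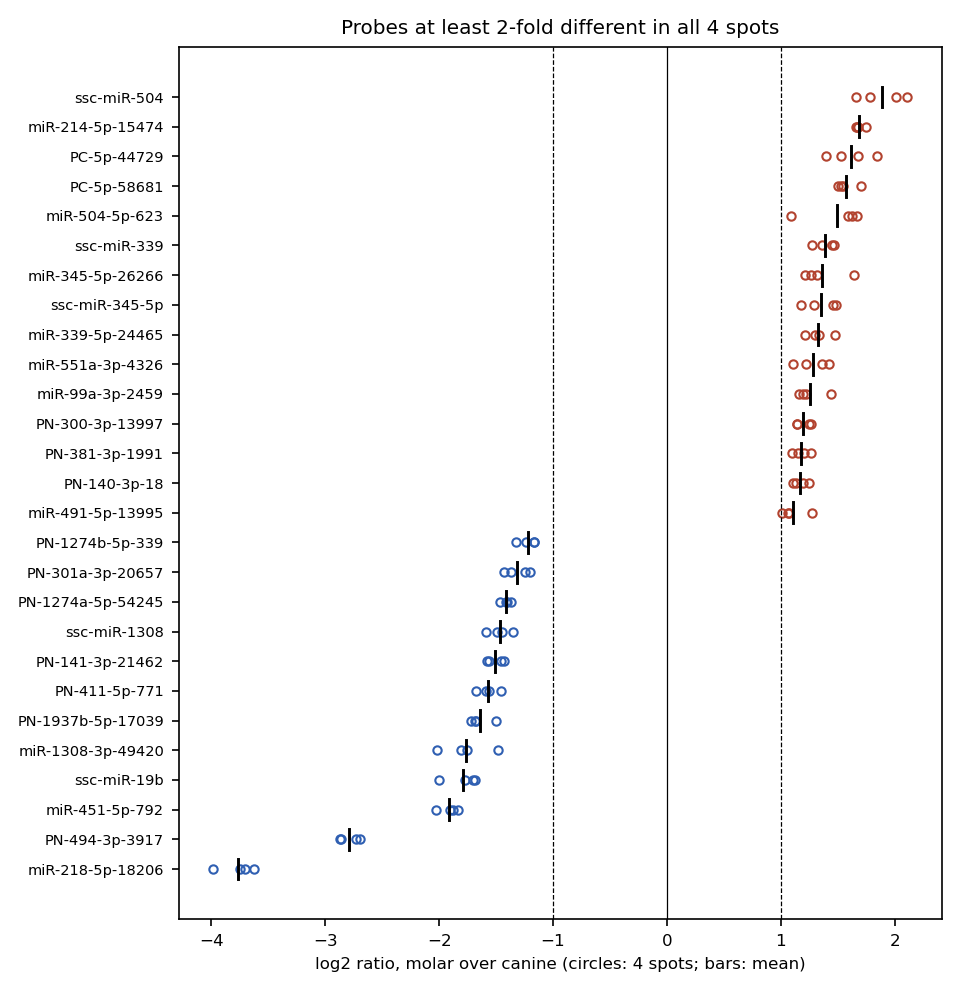
The log2 ratio of molar over canine in each of the 4 spots (circles) and their mean (bars) for 27 of the 28 probes at least 2-fold different in every spot, with dashed lines at 2-fold. Circles of 1 probe lie close together, with the widest spread for the dim probes miR-504-5p-623 and miR-1308-3p-49420.

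The probes lower in the molar were led by miR-218-5p-18206. It read 50.0, 56.9, 52.4 and 59.5 units in the molar, where it was not above background, and 791, 765, 683 and 735 units in the canine. Since the molar gives only a bound, it was at least 9.67-fold lower in the molar. The right column was lower than the left for this probe on all 5 other arrays too, with log2 ratios of -1.18 to -3.54, so column and germ cannot be told apart for it. Its sequence also differs from that of the other probe named for this arm, shown here because both carry the name miR-218-5p but different seeds:
miR-218-5p-53526: uUGUGCUUgaucuaaccaugug
That second probe, which has the seed of the slit-gene miRNA miR-218, was dim and gave a log2 ratio of 0.23 ± 0.22.

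PN-494-3p-3917, named for a miRNA of the DLK1-DIO3 locus, had the next lowest ratio. It read 415, 365, 404 and 409 units in the molar and 3030, 2365, 2672 and 2989 units in the canine. The log2 ratio was -2.79 ± 0.09, 6.92-fold, and on the other 5 arrays the right column was never lower than the left (0.16 to 1.02). PN-411-5p-771, of the same locus by name, had a log2 ratio of -1.57 ± 0.09, with 126, 124, 142 and 133 units in the molar and 401, 342, 426 and 393 units in the canine.

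miR-451, a miRNA of red blood cell precursors, was lower in the molar. It read 163, 167, 151 and 152 units in the molar and 610, 595, 557 and 618 units in the canine, a log2 ratio of -1.91 ± 0.08. The other blood cell probes did not move with it: the 7 probes of that list had a median log2 ratio of -0.08, 1 of them was called, and only 2 were detected in the molar. Among the dim ones, ssc-miR-486 was at 0.11 ± 0.13 and miR-144-3p-40226, from the same transcript as miR-451 in mammals, at -0.09 ± 0.16. The summed density over background of the 7 probes was 131 units in the molar and 689 units in the canine, of which miR-451 alone gave 109 units in the molar and 487 units in the canine. The other 6 probes, at 22.0 units in the molar and 202 units in the canine, were near the level of the control spots in each column. For miR-451 a smaller share of blood in the molar germ cannot be told apart from less of this miRNA per cell.

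miR-19b, one of the miR-17-92 cluster, was called lower, whereas its relatives were not. It read 623, 616, 511 and 655 units in the molar and 2124, 2011, 2044 and 2108 units in the canine, a log2 ratio of -1.79 ± 0.14. The near-identical ssc-miR-19a was not detected in the molar and had a log2 ratio of -0.40 ± 0.09. Others of the cluster lay nearer 0, with -0.42 ± 0.03 for ssc-miR-17-5p and 0.46 ± 0.10 for ssc-miR-92a. With centring on the median ssc-miR-19b was at -0.89, still below 0 but short of 2-fold.

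The 4 brightest probes called lower in the molar were named for miR-1274, miR-1308 or miR-1937. The human entries miR-720, miR-1274 and miR-1308 were later withdrawn as pieces of transfer RNA. PN-1937b-5p-17039 read 11907, 9873, 9771 and 10022 units in the molar and 33600, 31749, 31149 and 33087 units in the canine, a log2 ratio of -1.64 ± 0.10. ssc-miR-1308 had a log2 ratio of -1.47 ± 0.10, with 8837, 7749, 8096 and 8192 units in the molar and 22566, 23280, 22081 and 22999 units in the canine. All 7 probes named miR-720, miR-1274, miR-1308 or miR-1937 had ratios below 0, with a median of -1.47, and 6 of them were called. The dim one among them, miR-1308-3p-49420, read 73.4, 76.7, 76.8 and 80.3 units in the molar and 297, 259, 269 and 225 units in the canine (-1.77 ± 0.22), and its right column was lower by as much as -3.31 on another array. PN-720-5p-9742, at -0.62 ± 0.06, was not called. These 7 probes were put together after their values had been seen, so their shared direction is a description and supports nothing. With centring on the median the 4 bright ones kept their sign but came to between -0.34 and -0.80. Probes for pig 5S ribosomal RNA, a further short RNA that is not a miRNA, had log2 ratios between -0.31 and 0.38 on the same array. Calibration control probes ranged more widely, from -2.86 for Ctr07-3M05 to 1.07 for Ctr03-3M10, and the amount of their targets in each RNA is not given in the sources used here. No control spot was used in the normalization.

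PN-141-3p-21462 and PN-301a-3p-20657 completed the lower group. PN-141-3p-21462, named for an epithelial miRNA of the miR-200 family, read 247, 206, 192 and 221 units in the molar and 667, 617, 529 and 654 units in the canine, a log2 ratio of -1.51 ± 0.07. PN-200a-3p-145, which shares its seed, was far brighter and less different (-0.52 ± 0.04). PN-301a-3p-20657 had a log2 ratio of -1.31 ± 0.11, with 118, 130, 122 and 145 units in the molar and 318, 299, 316 and 345 units in the canine. miR-301b-3p-21966, which has the same seed, gave 0.24 ± 0.23. The pig probe ssc-miR-301, which shares 18 bases with PN-301a-3p-20657, gave -0.16 ± 0.12 but was not detected in the molar.

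Contrasts of that size were rare among similar probes detected in both RNAs. Of 162 pairs of probes that share a run of at least 14 bases and were detected in both RNAs, the median absolute difference between their log2 ratios was 0.094 and the 90th percentile 0.344. Only 2 pairs differed by 1 or more on the log2 scale, miR-301b with PN-301a (1.56) and the 3′ arms of miR-181c and miR-181a (1.01). PN-200a-3p-145 with PN-141-3p-21462 came next (0.99). The pair of ssc-miR-301 with PN-301a (1.16) is outside this count, since ssc-miR-301 was not detected in the molar. Both miR-19 probes differ by 1 base near the middle and share no run of 14 bases, so their pair was not considered. The sequences of miR-301b, PN-301a and both miR-19 probes are shown because probes so alike gave such different ratios:
miR-301b-3p-21966: cAGUGCAAugauauugucaaagcau
PN-301a-3p-20657: cAGUGCAAuaguauugucaaagcau
ssc-miR-19a: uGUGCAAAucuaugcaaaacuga
ssc-miR-19b: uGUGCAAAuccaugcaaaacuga
How far the hybridisation of one such RNA to the probe of its relative adds to these values was not tested.

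Just outside the rule stood a few probes that missed it by 1 spot or by a small margin. The imprinted ssc-miR-127 read 2861, 2231, 2603 and 2363 units in the molar and 1234, 1119, 1225 and 1207 units in the canine, with a log2 ratio of 1.07 ± 0.11 and a lowest spot of 0.97. PC-3p-41498 had a log2 ratio of 1.20 with a lowest spot of 0.99. On the other side, miR-181a-3p-3133 was at -1.08 with 1 spot at -0.95, and miR-31-5p-42472 was at -0.97 ± 0.06. The nearest probes inside were miR-491-5p-13995, whose lowest spot was 1.01, and PN-1274b-5p-339, whose mean was -1.22.

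Of the brightest miRNAs, ssc-miR-1308 was called lower in the molar, and those that follow differed by less than 2-fold. ssc-miR-16, which with the miR-15 family restrains cyclins, read 24624, 23291, 24446 and 21023 units in the molar and 18200, 17597, 18274 and 18629 units in the canine, a log2 ratio of 0.36 ± 0.12. The mean of ssc-miR-130a was 0.41 ± 0.10, that of miR-149-3p-13400 was -0.14 ± 0.13, and that of ssc-miR-574 was -0.46 ± 0.04. With centring on the median these ratios came to 1.21 for ssc-miR-16, 1.27 for ssc-miR-130a, 0.72 for miR-149-3p-13400 and 0.40 for ssc-miR-574, so the first pair passed 2-fold and the second pair changed sign. In the canine ssc-miR-1308 stood above all other miRNA probes, whereas in the molar the place was held by ssc-miR-16. Such ranks compare probes of different sequence and are not relative amounts of RNA.

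The seed families showed small differences that ran one way in some of them. The let-7 seed GAGGUAG, of a family that rises with differentiation in animals, was carried by 12 detected probes, of which 11 had ratios above 0, with a median of 0.44. Of the 12, 11 were detected in both RNAs, and over all 402 probes so detected 250 were above 0 with a median of 0.09. None of the 12 was called. ssc-let-7a read 330, 326, 332 and 291 units in the molar and 230, 222, 243 and 217 units in the canine, a log2 ratio of 0.49 ± 0.06. Some of these probes are named miR-7 followed by a letter, as in miR-7d-5p-35 (0.55 ± 0.26), although the sequence begins with the let-7 seed:
ssc-let-7a: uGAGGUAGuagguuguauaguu
miR-7d-5p-35: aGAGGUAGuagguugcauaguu
The 6 probes with the miR-320 seed AAAGCUG were all above 0, between 0.48 and 0.67. Within the let-7 group and within the miR-320 group probes resemble each other in sequence, so they are not separate observations. The medians of both groups stayed above 0 under the 7 other settings of background and normalization and in the authors' deposited table, from 0.38 to 1.05 for the let-7 seed and from 0.53 to 1.51 for the miR-320 seed.

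The opposite direction was seen for a few other seeds, but it depended on how the ratios were centred. The 5 probes with the seed GCAGCAU of miR-103 and miR-107, miRNAs tied to metabolism, were all below 0, with a median of -0.50. ssc-miR-103 read 1411, 1166, 1413 and 1181 units in the molar and 1957, 1777, 1824 and 1820 units in the canine (-0.52 ± 0.12). Of 7 probes with the miR-17 seed AAAGUGC, 6 were below 0, with a median of -0.49 and PN-93-5p-107 as the exception (0.27 ± 0.08). Of 12 probes with the miR-181 seed ACAUUCA, 10 were below 0 with a median of -0.14. Within each of these families probes resemble each other in sequence, so they are not separate observations. With centring on the median all 3 groups turned to above 0, at medians of 0.41 for miR-103 and miR-107, 0.32 for miR-17 and 0.71 for miR-181. The same centring placed the median of all detected probes at -0.06. With no normalization the miR-181 median was also above 0, at 0.20, while that of miR-103 and miR-107 was -0.10 and that of miR-17 was -0.19. In the authors' deposited table the medians were -0.59 for miR-103 and miR-107, -0.72 for miR-17 and -0.30 for miR-181.

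**Figure D3:**
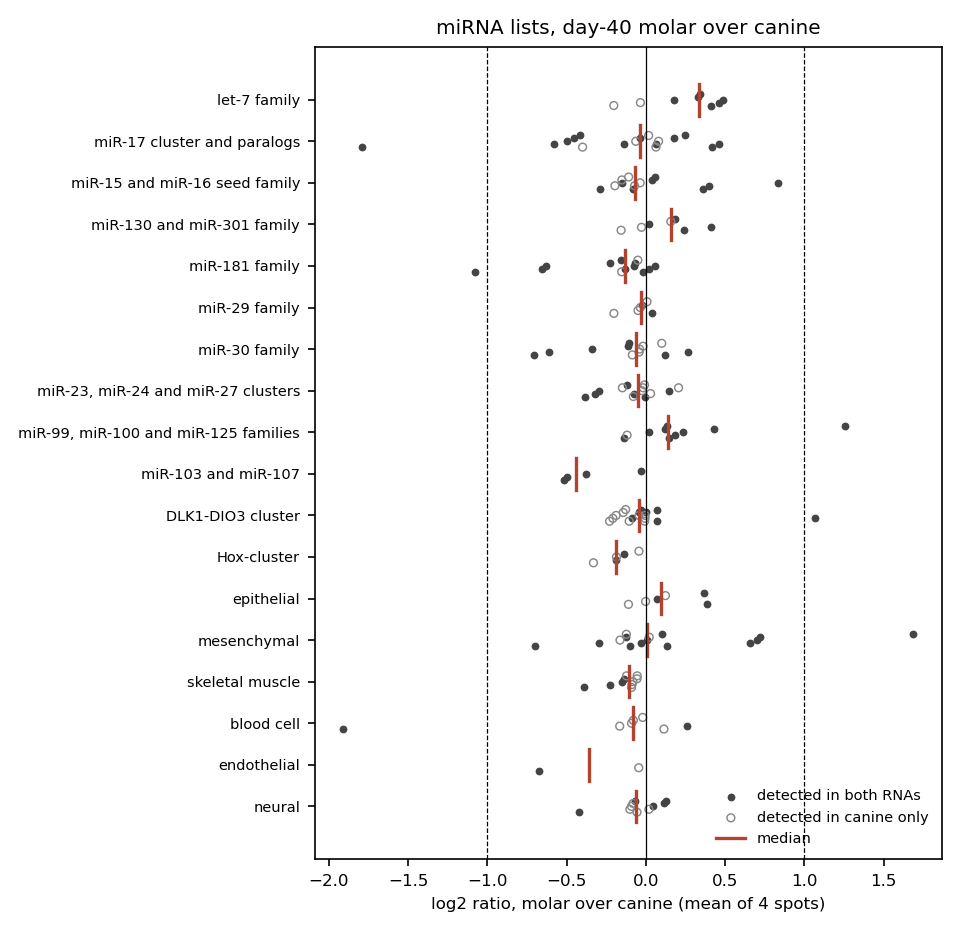
The log2 ratio of molar over canine for detected pig and miR-named probes of 18 lists (points, mean of 4 spots; filled where both RNAs detected the probe) and the median of each list (red bars), with dashed lines at 2-fold. The let-7 points lie mostly right of 0, those of miR-103 and miR-107 left of it (their median is 0.40 with centring on the median), and single probes such as ssc-miR-19b and miR-451-5p-792 lie far from their own lists.

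The lists of cell type markers set the tissue against its label. Mesenchymal miRNAs were clearly present in both germs: the median density over background of their 15 detected probes was 1145 units in the molar and 553 units in the canine, with a median log2 ratio of 0.01 and a range of -0.70 for ssc-miR-143 to 1.69 for miR-214-5p. The neighbours miR-143 and miR-145, of 1 precursor in mammals, differed in sign, since ssc-miR-145 was at 0.65 ± 0.04 and miR-145-5p-234 at 0.72 ± 0.04. Of the 6 epithelial probes 3 were detected in the molar, and all 6 in the canine, led by miR-205, a keratinocyte miRNA. miR-205-5p-304 read 5011, 4355, 4185 and 3871 units in the molar and 3390, 3192, 3448 and 3241 units in the canine, a log2 ratio of 0.39 ± 0.15. PN probes named for the same epithelial miRNAs added 11 detected probes with a median of 0.06, 6 above 0 and 5 below. The lowest was PN-141-3p-21462 at -1.51, the only 1 called, and PN-203-3p-308 was at -0.79 ± 0.08. Markers of both layers of a tooth germ were thus measured in both RNAs. The mesenchymal median depended on the normalization, at 0.84 with centring on the median and -0.02 in the authors' deposited table.

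Most markers of other tissues were dim, with miR-126 of vessels as an exception. The 10 detected probes for skeletal muscle miRNAs had a median density over background of 1.53 units in the molar and 37.3 units in the canine, close to the level of the control spots in each column. They had a median log2 ratio of -0.11, and none was called. Neural miRNAs (10 probes, 5 detected in the molar) had a median log2 ratio of -0.06, with miR-138-5p-826 lowest at -0.42 ± 0.17, and Hox-cluster miRNAs (5 probes) had one of -0.19. The vessel miRNA miR-126-3p-3530 read 500, 348, 432 and 363 units in the molar and 671, 613, 618 and 702 units in the canine, a log2 ratio of -0.68 ± 0.25 (0.17 with centring on the median), while its other arm was not detected in the molar. Whether more vessel tissue in the canine germ goes with this value was not tested.

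The medians of the remaining families lay near 0 under the normalization used here. The median log2 ratio was 0.14 for 10 probes of the miR-99, miR-100 and miR-125 families (range -0.14 to 1.26) and 0.16 for 7 probes of the miR-130 and miR-301 family (-0.16 to 0.41). It was -0.07 for 13 probes of the miR-15 and miR-16 family, in which ssc-miR-15b at 0.83 ± 0.36 stood highest and miR-195-5p-6765 at -0.29 ± 0.14 lowest. For 12 probes of the miR-30 family it was -0.06, between -0.71 ± 0.09 for ssc-miR-30b-5p and 0.27 ± 0.15 for miR-30c-5p-2750. The lists of miR-29 (6 probes, -0.03) and of miR-23, miR-24 and miR-27 (14 probes, -0.05) had no called member. For the DLK1-DIO3 locus the 17 pig and miR-named probes had a median of -0.04, and the 45 detected PN-named probes had a median of 0.01 with a range of -2.79 to 1.18, so its called members lay on both sides. That list does not hold miR-300, and PN-300-3p-13997 (1.20) is therefore not among the 45. With centring on the median the values were 0.40 for the miR-15 and miR-16 family, 0.59 for miR-99, miR-100 and miR-125 and -0.02 for miR-130 and miR-301, and with no normalization the last of these was -0.53.

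The other day-40 germs give a frame for the called probes. After scaling between arrays, the molar was the highest of all 4 tooth types of day 40 for 13 of the 15 higher probes, against 67.9% of the detected probes whose level was higher in the molar than in the canine. It was the lowest of the 4 types for 13 of the 13 lower probes, against 59.8% of the detected probes lower in the molar. The called probes were chosen for large differences from the canine, which favours the first or last place for the molar, so these counts are a description only. The exceptions were the probes with the miR-381 seed, whose levels were 10.92 and 10.93 on the log2 scale in the molar, against 11.04 and 11.11 in the premolar. For PN-494-3p-3917 the molar, at 8.48, stood apart from the canine at 11.27, the incisor at 11.23 and the premolar at 11.50.

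A single array has only 1 dye arrangement, so the other arrays were set beside it by column. The log2 ratio of the right over the left column exceeded that of all 5 other arrays for 7 of the 15 higher probes (21.0% of all detected probes did) and was below that of all 5 for 12 of the 13 lower probes (20.6%). Since the called probes were chosen for a large ratio on this array, nothing is read from these counts. The molar over canine ratio and the premolar over incisor ratio of day 40, from arrays that share no RNA but have the same column arrangement, had an r of -0.04 across the 402 probes detected in both RNAs. With the premolar over incisor ratio of day 60 the r was 0.35, a description across probes that share columns and sequence. Of the 15 higher probes, 10 were also above 0 in the premolar over the incisor of day 40 and 13 in that of day 60, against 46.0% and 49.9% of detected probes. Of the 13 lower probes, 4 were below 0 in the premolar over the incisor of day 40 and 7 in that of day 60, against 54.0% and 50.1% of detected probes. The part of dye or column in these values was not tested.

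**Figure D4:**
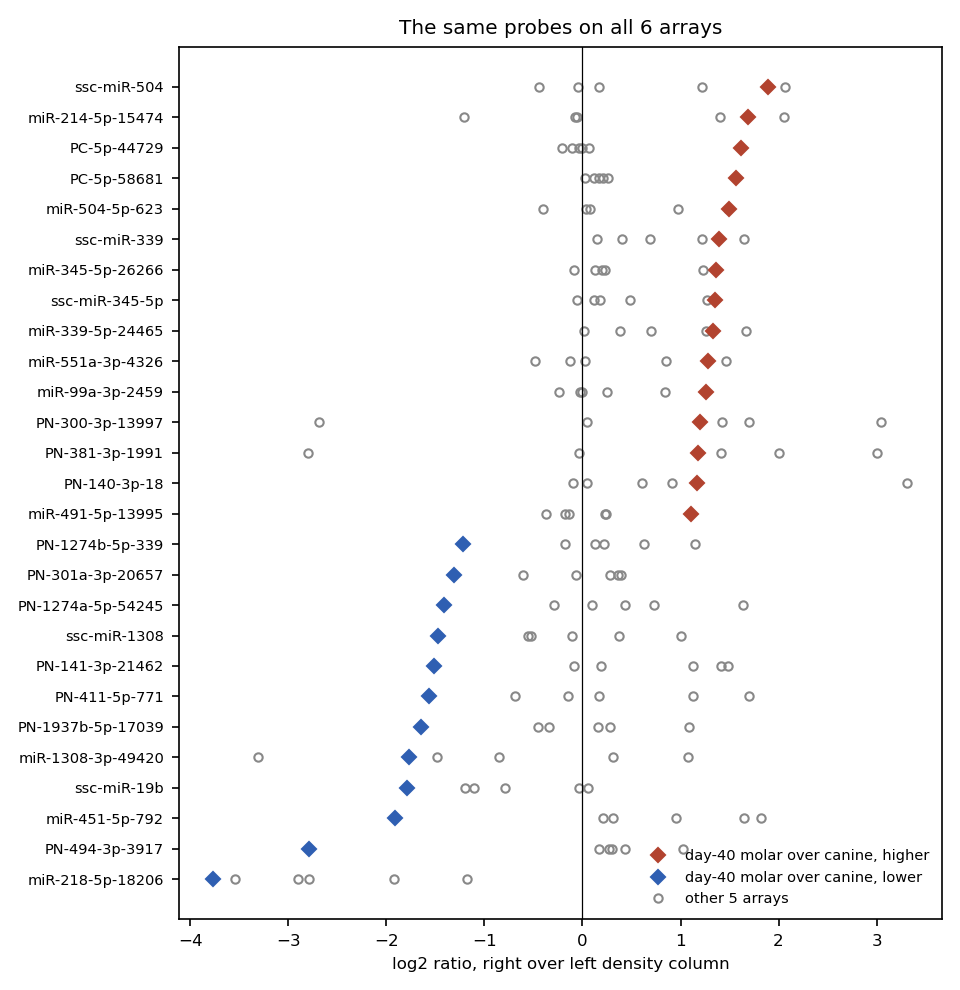
For 27 of the 28 called probes, the log2 ratio of the right over the left column on the array of day-40 molar (right) and canine (left) (diamonds) and on the other 5 arrays (circles). The lower diamonds lie left of all circles except for miR-1308-3p-49420, whereas 8 of the 15 higher probes have at least 1 circle as far right as the diamond or farther.

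After scaling between arrays, the later days did not repeat most of the higher calls. The mean log2 level of both later molars minus that of both later canines was above 0 for 2 of the 15 higher probes (46.7% of detected probes) and below 0 for 12 of the 13 lower probes (53.3%). Both later molars lay below both later canines for 11 of the 13 lower probes (34.5% of detected probes) and above them for 2 of the 15 higher probes (29.1%). ssc-miR-19b, for instance, had levels of 6.79 and 6.75 in the later molars, against 12.48 and 8.82 in the canines of days 50 and 60. These levels rest on 1 array of both later molars that stood apart from the rest: its RNAs had median Spearman correlations of 0.66 and 0.67 with the other 11 RNAs, against 0.85 to 0.92 for the others. Without scaling between arrays, 9 of the 15 higher probes were above 0 and 11 of the 13 lower ones below 0, while the median over all detected probes lay at 0.39 in place of -0.02.

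**Figure D5:**
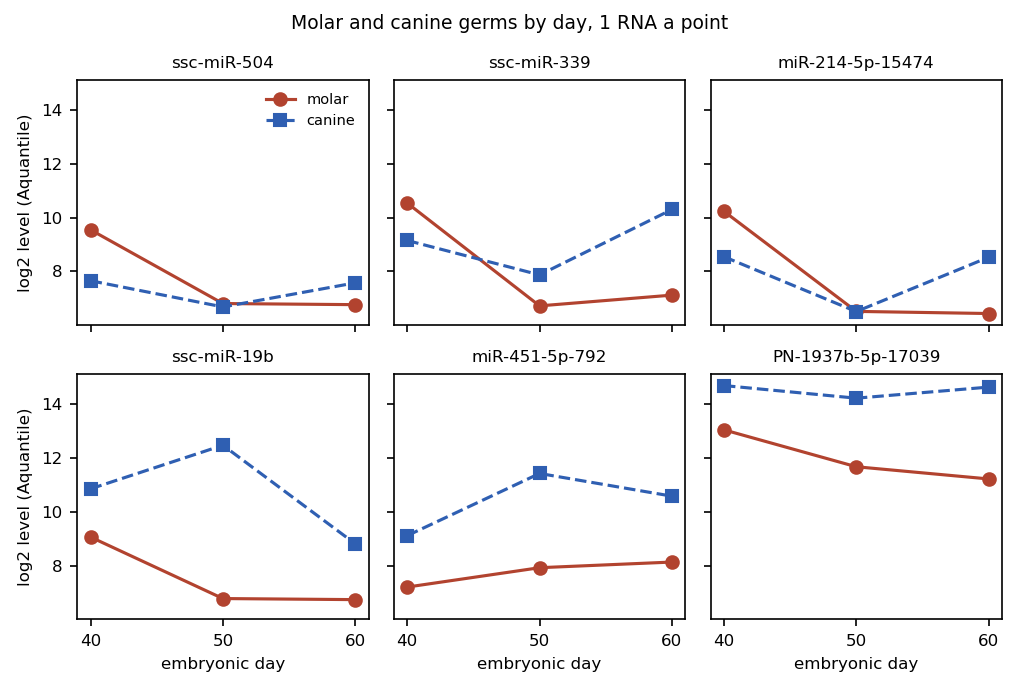
Log2 level after scaling between arrays of 6 called probes in molar (red circles) and canine (blue squares) germs at embryonic days 40, 50 and 60, 1 RNA for each point. The first 3 probes are higher in the molar at day 40 and, as drawn by the column headings, lower in it at day 60. The last 3 are drawn lower in the molar at every day. The labels' dyes and the column headings of the array of both later molars disagree on which column is day 50, so no order of those points should be read.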

How the data were processed

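The deposited spot file gives, per the file headers, the mean fluorescence intensity of every spot in 2 columns on a linear scale, with commas inside large values (removed here) and no background subtracted by the authors. Per the labels' protocols, small RNAs were size fractionated, tailed and tagged for Cy3 or Cy5. No scanner or image software is given in the sources used here. The authors' deposited table of processed log2 values served as an alternative. Its direction matched (r = 0.76 with the ratios computed here, 0.86 for probes detected in both RNAs, median 0.16), while its scale and centring stay unknown. A surface through the blank spots (span 0.3) was removed with normexp and an offset of 50 units in limma 3.58.1 (R 4.3.3). Ratios were normalised by loess (span 0.3) on experimental spots and averaged over 4 spots. Levels across arrays used Aquantile scaling.

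A probe was called when detected in at least 1 RNA and at least 2-fold different in 1 direction in all 4 spots. With 1 RNA a group no test was possible, and a single array sets the precision. Named probes were the called miRNA probes with the largest differences, up to 10 in each direction (fewer than 10 were called lower), and the 3 highest and lowest called PN or PC probes. To these came the 5 brightest miRNA probes of each RNA and the highest and lowest detected member of each list. Other named probes, the seed groups and the opposite arms were chosen after their values were seen. The members and lists were chosen with earlier results of these data known. The steps were tested on simulated data with known ratios balanced in both directions, and recovery was checked for bright probes only. The simulation held no canine excess on the probe spots and no intensity-dependent difference between columns. It therefore does not bear on the dim probes or on the choice of normalization. No genome of the pig was used here, so no coordinates are given. The sequences of some called probes are not reported here.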

Additional observations from a re-analysis of the deposited data

Results flagged for a closer look

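For 6 called probes, after scaling between arrays, the molar and canine RNAs of days 50 and 60 all moved the opposite way to day 40. This difference between days was not tested, and the later molars share 1 array that stood apart. The day-40 log2 ratio of molar over canine was 1.39 for ssc-miR-339, 1.35 for ssc-miR-345-5p, 1.33 for miR-339-5p-24465, 1.28 for miR-551a-3p-4326 and 1.11 for miR-491-5p-13995. The later molars minus the later canines gave -2.17, -0.57, -2.10, -1.13 and -0.46 for the same probes in that order. PN-494-3p-3917 had a log2 ratio of -2.79 at day 40 and a difference of 1.78 at the later days. Without that scaling the later differences were -0.96 for ssc-miR-339, -0.057 for ssc-miR-345-5p, -0.88 for miR-339-5p-24465, -0.41 for miR-551a-3p-4326, 0.053 for miR-491-5p-13995 and 3.94 for PN-494-3p-3917, so the smallest of them rest on it.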

How the results depend on the processing

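All 28 called probes kept their sign under each of the 7 other settings of background and normalization and in the authors' processed values. The number of probes at least 2-fold higher and lower was 15 and 13. It became 68 and 4 with median centring and 24 and 14 with no normalization within the array. With 1.5-fold in place of 2-fold it was 29 and 25. The authors' deposited table gives 1 value for each probe, so there the count used the mean ratio alone, which gave 85 and 50. By that looser rule the ratios computed here gave 31 probes in both directions together. The other settings gave 10 to 18 higher and 12 to 17 lower probes, and leaving out 1 spot in turn gave 15 or 16 and 13 or 14. Median centring left 19 of the 28 at 2-fold or more in the mean. The median of all detected probes moved by -0.55 with no normalization and by 0.16 in the authors' table, and the share of probes above 0 was 24.8% and 56.6%, against 46.4% here. Detection against the 48 calibration control spots, an alternative added after seeing the data, left both counts at 15 and 13. Where signals lie near the blank spots, mainly in the molar column, ratios carry little information. No paired analysis was possible because each group holds 1 RNA and the result comes from no test.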
